A study of Mus musculus with 38 samples.

Results

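Cd4, Cd8a, Cd8b1, Zbtb7b, Runx3 and Runx1 were examined as the genes that carry out or control the choice between the CD4 and the CD8 lineage in the thymus. They are 6 of the 22367 protein-coding genes of the GENCODE vM1 annotation on the mouse genome build mm9. They were taken by name and not by a threshold on measured values, but with earlier results of these data known. For each gene, the window was the gene body with 100 kb on each side, and every peak touching it was taken from 11 peak lists. The windows of Cd8a and Cd8b1 share 164 kb, because the end of Cd8b1 lies 35.9 kb from the start of Cd8a, so the 6 genes form 5 loci.

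Developing thymocytes pass through a stage at which they carry both coreceptors and then keep either CD4, which binds MHC class II, or the CD8 dimer made by Cd8a and Cd8b1, which binds MHC class I. Zbtb7b encodes ThPOK, the factor required for the CD4 helper fate, and Runx3 encodes the factor that fixes the CD8 cytotoxic fate and silences Cd4 there, whereas Runx1, its paralog, silences Cd4 in earlier thymocytes. SATB1 is a chromatin organizer abundant in thymocytes that binds base-unpairing regions (BURs), stretches of genomic DNA in which A, T and C alternate without G on a strand and which unpair readily under stress.

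All ChIP-seq lists came from wild-type C57BL/6 mice. In urea ChIP-seq, crosslinked chromatin was purified by ultracentrifugation in urea before immunoprecipitation, so that proteins bound directly to DNA remained, whereas in standard ChIP-seq the soluble part of sonicated chromatin was precipitated. SATB1 urea ChIP-seq was done with a homemade rabbit antibody in thymocytes of postnatal day 13 (replicate 1 with 4 µl and replicate 2 with 2 µl of antibody), in brain labelled 5 weeks (replicate 1, 10 PCR cycles) and 6 weeks (replicate 2, 12 cycles), and in skin of postnatal day 13 (titles naming 55 s and 60 s), with 2 lists each. SATB1 standard ChIP-seq of thymocytes had 2 lists that differed in antibody, a commercial one in replicate 1 (a title naming 6 weeks and 15 s, beside a labelled age of postnatal day 13) and the homemade one in replicate 2 (150 s). CTCF urea ChIP-seq had 1 list in thymocytes (title 6 weeks, labelled postnatal day 13) and 1 in skin of postnatal day 13, and the BUR reference map was 1 list of naked, sonicated thymocyte DNA bound by recombinant SATB1 in vitro. Inputs, libraries without SATB1 and the tracks of chromatin contacts were not analysed here, so whether any peak below also arises without SATB1 was not tested. The files hold no expression values, and the labelled tissues could not be checked against marker genes.

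The lists held 45049 and 38882 peaks for SATB1 urea in thymocytes, 117963 and 109154 in brain, 11210 and 10846 in skin, and 48175 and 27147 for SATB1 standard in thymocytes. CTCF had 20323 peaks in thymocytes and 31509 in skin, and the BUR map had 238380. Each peak carries a fold enrichment, the ratio at its summit as the peak caller gave it, which is not scaled between lists. The lists hold no read counts, so the depth of each could not be checked here. The study reports that totals of aligned reads were similar between its cell types in urea ChIP-seq. A window without a peak shows only that none was called, and fewer cells with a bound site cannot be told apart from weaker binding per cell. Values below are listed as replicate 1 and then replicate 2, and CTCF and the BUR map have no replicate.

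The 7 windows of sequence below are chosen examples of the SATB1 peaks of the 2 methods and of a BUR at these genes. Each is 300 bases of the mm9 assembly (NCBIM37), the plus strand read 5′ to 3′ and centred on a summit. The first 3 are SATB1 urea peaks: those with the highest mean fold enrichment in thymocytes at Runx3 and Runx1, and the one with the highest enrichment in brain at Cd8b1, chosen after its values were seen. The fourth is the BUR with the highest enrichment in the body of Cd4, where no SATB1 urea peak was called. Capitals mark the longest run that lacks C or lacks G on the plus strand.
Runx3 SATB1 urea peak, chr4:134651010-134651309: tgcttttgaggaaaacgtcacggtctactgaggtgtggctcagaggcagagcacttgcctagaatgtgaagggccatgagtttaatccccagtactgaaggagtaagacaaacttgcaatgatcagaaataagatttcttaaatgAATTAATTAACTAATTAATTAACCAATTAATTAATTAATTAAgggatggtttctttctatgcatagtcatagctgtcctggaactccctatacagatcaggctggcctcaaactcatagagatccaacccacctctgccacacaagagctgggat
Runx1 SATB1 urea peak, chr16:92750443-92750742: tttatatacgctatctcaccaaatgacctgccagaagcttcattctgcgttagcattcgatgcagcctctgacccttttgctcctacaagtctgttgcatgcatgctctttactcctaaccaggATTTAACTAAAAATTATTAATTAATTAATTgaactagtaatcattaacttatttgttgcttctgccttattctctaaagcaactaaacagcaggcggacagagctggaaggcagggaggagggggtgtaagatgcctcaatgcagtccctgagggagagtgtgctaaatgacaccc
Cd8b1 SATB1 urea peak of brain, chr6:71183766-71184065: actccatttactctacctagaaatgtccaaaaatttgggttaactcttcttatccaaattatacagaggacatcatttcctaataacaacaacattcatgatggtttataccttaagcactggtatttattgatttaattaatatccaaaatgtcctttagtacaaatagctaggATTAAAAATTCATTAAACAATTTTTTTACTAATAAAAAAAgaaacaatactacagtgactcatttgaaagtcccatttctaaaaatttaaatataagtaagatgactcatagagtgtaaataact
Cd4 BUR, chr6:124834610-124834909: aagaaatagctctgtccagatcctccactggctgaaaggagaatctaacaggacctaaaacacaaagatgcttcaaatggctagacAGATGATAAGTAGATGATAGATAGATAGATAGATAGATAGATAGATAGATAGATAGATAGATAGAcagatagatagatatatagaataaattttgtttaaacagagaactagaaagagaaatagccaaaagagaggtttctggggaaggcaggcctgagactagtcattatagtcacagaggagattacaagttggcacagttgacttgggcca
The runs lacked G over 42 bases at Runx3, 30 bases at Runx1 and 40 bases at Cd8b1, and lacked C over 65 bases at the Cd4 BUR, which on the other strand is a run without G. A and T made up 59.3% of the bases at Runx3, 57.3% at Runx1, 73.7% at Cd8b1 and 62.7% at the Cd4 BUR.

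The other 3 are SATB1 standard peaks of thymocytes at Cd8a, Runx3 and Cd4. Capitals mark the letters TGTGGT or their reverse complement ACCACA, the core of the sequence that RUNX factors recognise. The Cd8a and Runx3 peaks had the highest mean enrichment among peaks of both lists in or within 10 kb of their gene, and the Cd4 peak is the one nearest to the start site that both lists held, chosen after its values were seen.
Cd8a SATB1 standard peak, chr6:71319461-71319760: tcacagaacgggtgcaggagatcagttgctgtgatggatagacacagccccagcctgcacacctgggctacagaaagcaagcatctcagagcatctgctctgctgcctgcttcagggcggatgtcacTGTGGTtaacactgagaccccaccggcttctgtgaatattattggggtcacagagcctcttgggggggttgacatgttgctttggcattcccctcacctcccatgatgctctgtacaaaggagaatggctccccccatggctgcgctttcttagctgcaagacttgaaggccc
Runx3 SATB1 standard peak, chr4:134676255-134676554: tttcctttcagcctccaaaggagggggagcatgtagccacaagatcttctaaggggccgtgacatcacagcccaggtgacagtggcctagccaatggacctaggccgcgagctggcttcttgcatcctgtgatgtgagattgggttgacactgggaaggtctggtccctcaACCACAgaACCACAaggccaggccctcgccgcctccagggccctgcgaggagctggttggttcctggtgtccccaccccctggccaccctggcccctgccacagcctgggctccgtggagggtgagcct
Cd4 SATB1 standard peak, chr6:124836078-124836377: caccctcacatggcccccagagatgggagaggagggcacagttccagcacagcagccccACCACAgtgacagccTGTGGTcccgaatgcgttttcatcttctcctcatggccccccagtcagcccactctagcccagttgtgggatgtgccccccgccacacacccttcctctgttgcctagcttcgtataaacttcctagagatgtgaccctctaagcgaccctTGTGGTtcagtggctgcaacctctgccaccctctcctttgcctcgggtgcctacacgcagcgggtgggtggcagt
A and T made up 45.0%, 37.3% and 39.7% of these windows, and the letters occurred 1, 2 and 3 times. They are not typical in this: 84 of the 114 standard sites at the 5 loci held no copy, the Cd4 site was the only one with 3, and the site in intron 2 of Cd4 described below held 0. Each of these AT shares was lower than that of each of the 4 BUR and urea windows.

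The median of the 6 genes was low for SATB1 urea peaks and high for SATB1 standard peaks, although in thymocytes Runx3 was above most genes in both. In thymocytes, the median over the 6 windows was 0.693 and 0.463 urea peaks per 100 kb, against 0.928 and 0.862 over all genes. The corresponding density of standard peaks was 8.65 and 6.34 per 100 kb at the 6 genes, against 3.26 and 1.78 over all genes. The density of BURs was 3.95 per 100 kb at the 6 genes and 4.57 over all genes, and that of CTCF peaks was 2.86 against 1.45 in thymocytes and 2.96 against 1.98 in skin. In brain, the urea density was 1.66 and 1.43 per 100 kb at the 6 genes against 1.95 and 1.85 over all genes, and in skin the median was 0 at the 6 genes in both lists against 0.177 and 0 over all genes. The members' medians were thus below those of all genes in the 4 urea lists of thymocytes and brain and above them in both standard lists, a description with no test over the 6 genes.

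**Figure D1:**
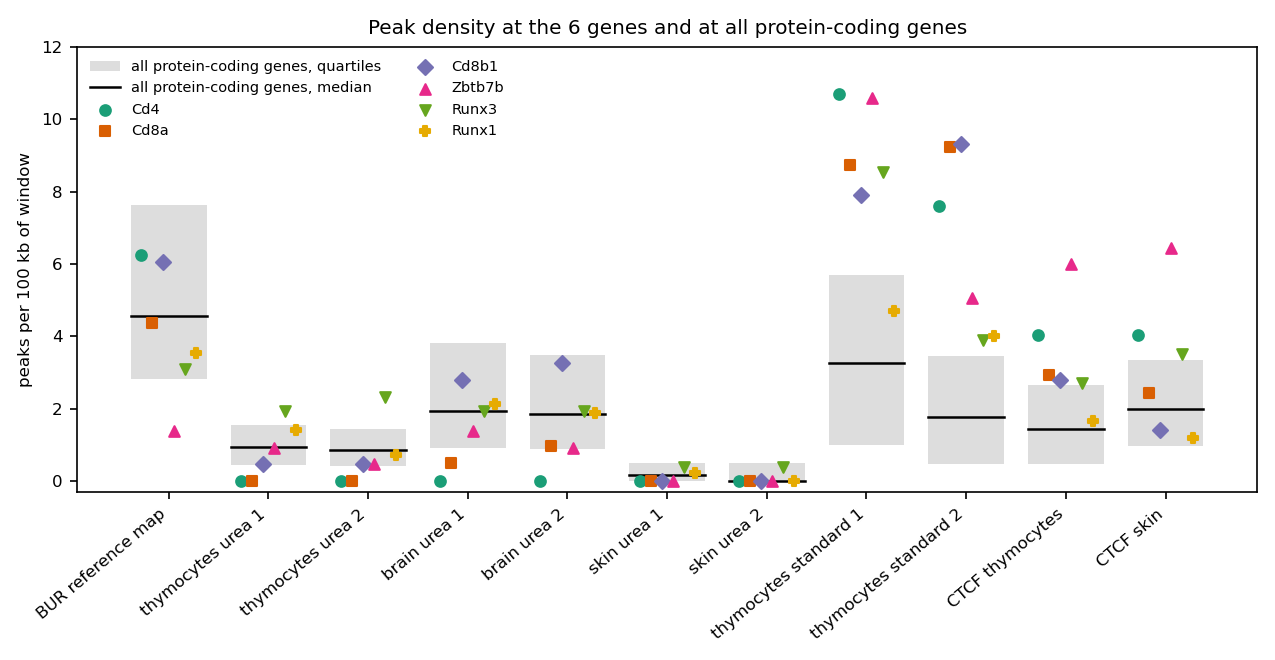
Peaks per 100 kb of window (vertical axis) in each of the 11 lists (horizontal axis), with a symbol for each of the 6 genes, a grey box for the quartiles and a line for the median of all protein-coding genes. In the standard lists the 6 genes sit between 3.89 and 10.7 peaks per 100 kb, above the medians of all genes (3.26 and 1.78), and in the thymocyte urea lists they sit between 0 and 2.33.

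Cd4 encodes the helper coreceptor and lies at chr6:124814710-124838239 on the minus strand. Its window of 223.5 kb held 0 SATB1 urea peaks in each of the 6 lists of thymocytes, brain and skin, while the standard lists of thymocytes held 24 and 17. It was the only one of the 6 genes without any urea peak, as were 5.46% of all protein-coding genes, and 3.94% of all genes combined this with a standard peak in both lists. The nearest urea summit lay 336 kb downstream of the Cd4 start site in both thymocyte lists (fold enrichment 10.1 and 8.06) and in both skin lists (8.38 and 6.14), and 206 kb upstream in both brain lists (4.03 and 5.3). Over all genes the median distance to the nearest urea summit was 37.4 and 40.9 kb in thymocytes, and 3.31% and 3.43% of genes were farther from one than Cd4 was.

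BURs were present at Cd4 all the same. The in vitro map had 14 BURs in the window, or 6.26 per 100 kb (percentile 66.1 of all genes), with fold enrichments from 3.73 to 13.8 and a median of 8.39, against 5.88 over the whole map. Of these, 4 lay in introns of Cd4, at 3.48, 5.58, 11.0 and 19.8 kb downstream of the start site, with fold enrichments of 13.7, 4.85, 9.82 and 7.09. None of the 14 was touched by a urea, standard or CTCF peak. Among the 8588 genes with at least 14 BURs, 0.582% had no urea peak in any list, and among the 4175 of these whose window was no longer than that of Cd4, 0.982% had none. The BURs at Cd4 had a median AT content of 62.0% and a median longest run without C or without G of 64.5 bases, against 71.7% and 40 bases over the whole map.

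Of the 24 standard sites in the Cd4 window, 3 had their summit inside the gene. Over the whole window, the density of standard peaks was 10.7 and 7.61 per 100 kb, percentiles 97.6 and 97.9 of all genes. The peak with the highest mean enrichment over the window lay 43.1 kb upstream, in intergenic DNA 0.101 kb from Mlf2 (12.9 and 11.4). It overlapped a CTCF peak of both tissues (thymocytes 8.04, skin 13.1). Among those of both lists in or within 10 kb of Cd4, the highest lay in intron 2, at 8.67 kb (11.2 and 4.83, mean 8.00 ± 4.49, SD, n = 2), and others lay in an intron of the neighbouring Gpr162 at 25.1 kb (7.43 and 7.47) and in intron 1 at 2.90 kb (7.34 and 4.31). The peak printed above was weaker, at 3.28 and 4.27 (3.77 ± 0.698, SD, n = 2), and lay in intron 1 at 2.01 kb (chr6:124835923-124836380). Intron 1 is also the place of the Cd4 silencer, the element through which RUNX factors repress Cd4 in CD8 cells, but whether the peak coincides with it was not tested. CTCF had 9 peaks in each tissue at Cd4 (percentiles 92.0 and 84.6), the nearest to the start site 15.5 kb upstream (thymocytes 13.7, skin 5.45), where both standard lists also had a peak (7.50 and 8.14).

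Cd8a (chr6:71323421-71329165, plus strand) and Cd8b1 (chr6:71272830-71287471, plus strand) encode the alpha and beta chains of the cytotoxic coreceptor. The window of Cd8a held 0 and 0 urea peaks in thymocytes, 1 and 2 in brain, and 0 and 0 in skin. The window of Cd8b1 held 1 and 1 in thymocytes, 6 and 7 in brain, and 0 and 0 in skin. Brain was thus higher than thymocytes in both lists at both genes, without overlap between the groups, as at 67.9% of all genes. Skin had none. Cd8a and Cd4 were the 2 of the 6 genes without a urea peak in either thymocyte list, as were 15.9% of all genes. Both CD8 genes also lacked any urea peak in their bodies.

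Of the 9 urea sites of this locus, where peaks of the 6 urea lists that overlap were joined into 1 site, 7 lay in introns of Smyd1, the gene upstream of Cd8b1, from 91.4 to 52.6 kb upstream of the Cd8b1 start. The site with the highest enrichment, at 88.9 kb upstream, had 12.7 and 11.5 in the brain lists, 5.20 in thymocyte replicate 2, no peak in thymocyte replicate 1, and lay on a BUR of 10.6. At 52.6 kb upstream the brain lists had 6.86 and 4.86 and thymocyte replicate 1 had 4.57, on a BUR of 4.60. That site lies 103 kb upstream of the Cd8a start, just outside the Cd8a window. No site of this locus was in both thymocyte lists, 6 were in both brain lists, and 4 of those 6 had no thymocyte peak. Among these 4, the site 80.5 kb downstream of the Cd8a start had 11.7 and 9.14 in brain on a BUR of 5.97, and the site 75 kb upstream of Cd8b1 had 3.83 and 6.85 on a BUR of 19.6. The strongest BUR of the locus thus carried a weaker brain peak than the BUR at 88.9 kb. Of 15 BURs at the locus 6 (40.0%) met a urea peak of any tissue.

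Standard peaks stood at the start sites of both CD8 genes. Cd8a had 18 and 19 in its window (percentiles 92.6 and 99.3) and Cd8b1 17 and 20 (percentiles 89.4 and 99.4), and 18 of the 22 standard sites of the locus were in both lists. The highest of the locus lay 3.81 kb upstream of Cd8a, in intergenic DNA (16.0 and 11.4), with weaker ones 2.18 kb upstream (2.42 and 3.25) and in the 5′ UTR of exon 1 (4.51 and 3.38). Within 10 kb of Cd8b1 the highest lay 0.232 kb upstream of the start (10.6 and 11.1), followed by one 18.5 kb downstream, between the 2 genes (8.60 and 6.10), and one 6.13 kb upstream in an intron of Smyd1 (5.63 and 6.89). Farther upstream in Smyd1, peaks at 15.2 kb (10.2 and 8.86) and 51.2 kb (10.3 and 7.90) had higher values than these last ones. No CTCF peak was nearer than 20.6 kb to either start site.

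Zbtb7b, the gene for ThPOK, lies at chr3:89181566-89198698 on the minus strand. Its window held 2 and 1 urea peaks in thymocytes, 3 and 2 in brain and 0 and 0 in skin, so thymocytes and brain overlapped and skin lay below both. Both thymocyte lists were above both skin lists at 59.9% of all genes. It was the member with the fewest BURs, 3 (1.38 per 100 kb, percentile 5.95), and each of the 3 met a urea peak of brain. Of the 3 urea sites, only the one 91.2 kb upstream was in both thymocyte lists (7.17 and 8.84), and it was in both brain lists as well (11.3 and 13.0, on a BUR of 7.46). A second, at 89.6 kb upstream, had 6.70 in thymocyte replicate 1 and 5.73 in brain replicate 1. The third, 94.0 kb downstream, was in both brain lists alone (8.05 and 7.95).

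Between the 2 upstream urea sites lay a CTCF peak, 90.6 kb upstream of the start (thymocytes 15.6, skin 12.2), on which both standard lists had a peak (6.09 and 4.66). The urea peak at 91.2 kb was 0.630 kb from it and did not overlap it. Zbtb7b had the highest CTCF density of the 6 genes, with 13 peaks in thymocytes and 14 in skin (percentiles 98.9 and 98.0). Standard peaks numbered 23 and 11 (percentiles 97.4 and 89.5), and the only one in both lists within 10 kb of the gene lay 1.64 kb upstream (8.99 and 9.71) on a CTCF peak (12.4 and 9.10). It lay in an intron of the transcript Gm15417. Of the 24 standard sites of Zbtb7b, 10 overlapped a CTCF peak.

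Runx3, the factor of the CD8 cytotoxic fate, lies at chr4:134676567-134733905 on the plus strand. Its window held 5 and 6 urea peaks in thymocytes, 5 and 5 in brain and 1 and 1 in skin. It was the only member at which both thymocyte lists held at least as many peaks as both brain lists, with a peak in each, as did 6.37% of all genes, and 0.836% of all genes had both thymocyte lists above both brain lists, none of the 6 genes among them. The thymocyte density was 1.94 and 2.33 per 100 kb (percentiles 81.6 and 91.0), the brain density 1.94 in both lists (percentiles 49.7 and 52.6). Runx3 was also the only member with a urea peak in both lists of all 3 tissues, as had 41.4% of all genes. None of its urea peaks lay in the gene body.

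The peak shared by all 3 tissues lay 25.4 kb upstream (site chr4:134650847-134651495), in intergenic DNA on a BUR of 13.4. Its enrichment was 23.0 and 21.8 in thymocytes, 17.7 and 20.1 in brain and 12.8 and 10.8 in skin. The 3 pairs of values did not overlap, but the ratio is not scaled between lists and 2 lists against 2 cannot give an exact two-sided permutation p below 0.333. This was the highest enrichment in thymocytes at any of the 5 loci. A further 3 Runx3 sites were in both thymocyte lists, all downstream of the gene. The one 68.5 kb from the start had 14.5 and 10.4 in thymocytes and 14.6 and 12.2 in brain, on a BUR of 10.4. Those at 110 kb (6.61 and 8.58) and 131 kb (11.7 and 12.4) lay in introns of the neighbouring Clic4, and brain had 6.85 in replicate 2 alone at the first and 11.1 and 15.7 at the second. Of the 8 BURs at Runx3, 4 (50.0%) met a urea peak.

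Runx3 had 22 and 10 standard peaks (percentiles 91.9 and 79.8), and 8 of its 22 standard sites were in both lists. The highest of these lay 40.1 kb upstream (12.7 and 10.5) and 85.8 kb downstream of the start (14.5 and 8.69), the latter on a CTCF peak. Another sat at the start site, 0.162 kb upstream (6.29 and 5.49), and is the second standard sequence above. Within 10 kb of the gene the only other one in both lists lay in intron 2 at 32.5 kb (3.61 and 5.19). The nearest CTCF peak to the start lay 30.0 kb downstream, in an intron of Runx3 (thymocytes 13.0, skin 8.15), and none of the CTCF peaks met a urea peak.

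Runx1 lies at chr16:92601712-92826311 on the minus strand and is the longest of the 6 genes (225 kb, in a window of 424.6 kb). Its window held 6 and 3 urea peaks in thymocytes, 9 and 8 in brain and 1 and 0 in skin, and the 3 pairs did not overlap. Over all genes, both brain lists were above both thymocyte lists at 67.9%, and both thymocyte lists above both skin lists at 59.9%. Per 100 kb, thymocytes had 1.41 and 0.707 (percentiles 68.4 and 45.7), brain 2.12 and 1.88 (percentiles 53.3 and 50.9) and skin 0.236 and 0. Runx1 was the only member with urea peaks in its body: 62.0% of all genes had none there, and 5 of the 6 genes were of that kind. In both thymocyte lists such peaks were called at 75.7 kb, in intron 2 (8.89 and 9.31), and at 147 kb, in intron 4 (6.10 and 9.10). The brain lists gave 9.01 and 9.50 at the first of these sites and 8.63 and 8.84 at the second.

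The intron 2 peak of Runx1 was the only urea site at the 5 loci that both thymocyte lists held, that had no BUR, and that skin replicate 1 also held (5.66), skin replicate 2 having no peak there. The third site in both thymocyte lists lay 30.3 kb upstream of the start, on the strongest BUR of the window (18.3). There the brain lists had 23.9 and 23.3 and the thymocyte lists 10.0 and 5.98, so brain was the higher. This was also the only urea site of the 5 loci to overlap a standard peak, of 5.18 in replicate 2. Other BURs of Runx1 had no urea peak in spite of a high enrichment in vitro, among them those of 16.8, 16.2 and 14.3 in the gene body at 212, 207 and 133 kb. Of the 8 BURs in the gene body 3 met a urea peak, and of all 15 in the window 7 did (46.7%).

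Standard peaks of Runx1 numbered 20 and 17 (percentiles 65.7 and 81.5), the lowest density among the 6 genes in replicate 1. Those with the highest mean enrichment in both lists lay in intron 2, at 24.3 kb (17.2 and 11.0), 84.6 kb (16.0 and 9.04) and 110 kb (11.0 and 8.07) from the start. Replicate 1 gave the higher value at each of these. Near the start site both lists had a peak 0.133 kb upstream (5.11 and 6.30). Of the 22 standard sites at Runx1, 16 lay within the gene.

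**Figure D2:**
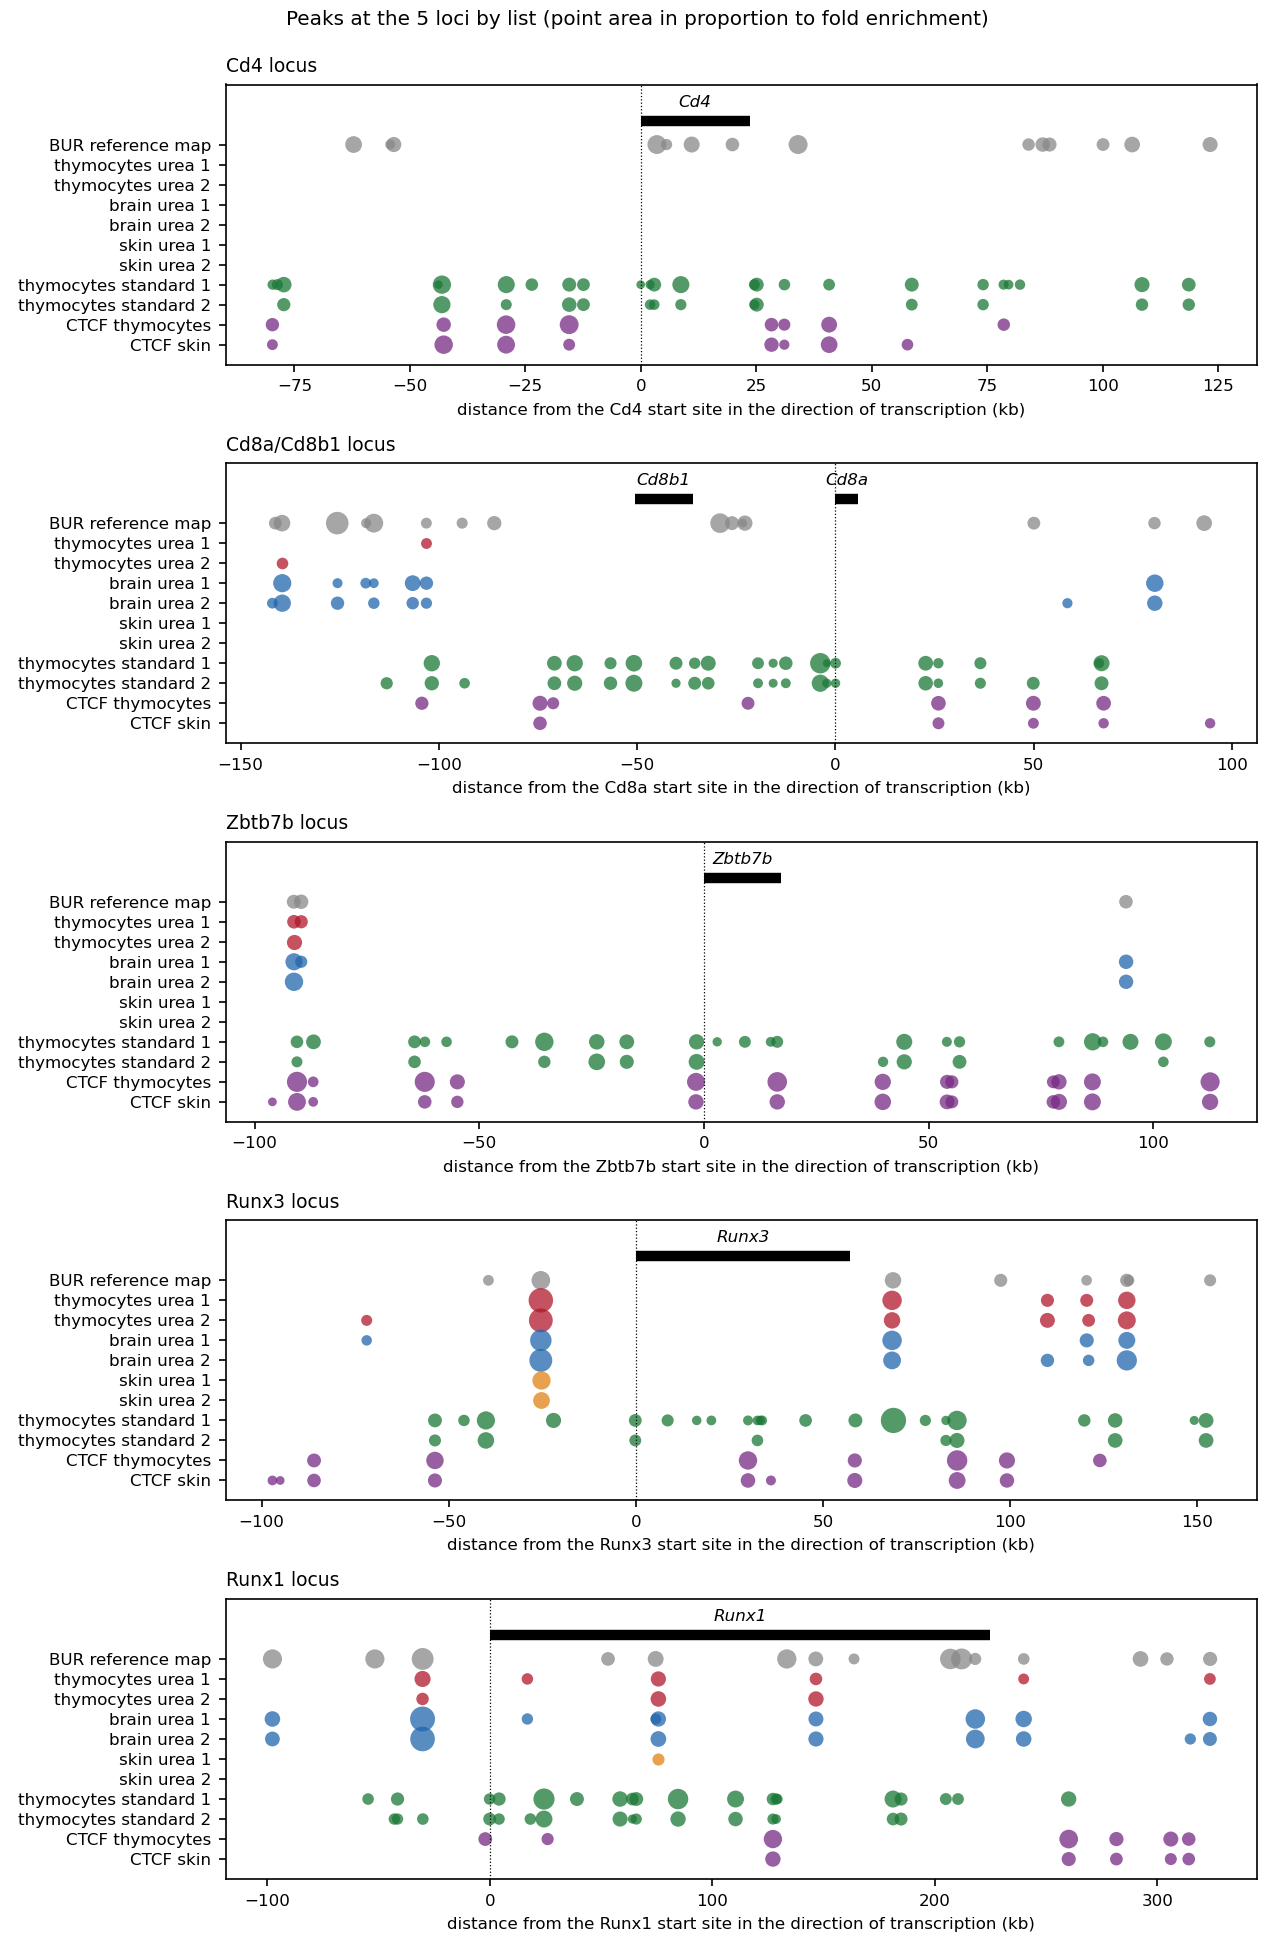
Maps of the 5 loci, with the distance from the gene start in kb on the horizontal axis (from the Cd8a start for both CD8 genes), black bars for the members' bodies, and a row for each of the 11 lists, in which each point is a peak with an area in proportion to its fold enrichment. The 6 urea rows are empty at Cd4 although 14 BURs are marked, and the Runx3 site 25.4 kb upstream is marked in each of the 6.

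The urea sites of the 5 loci lay away from the start sites of the 6 genes. There were 29 such sites, of which 8 were in both thymocyte lists, 18 in both brain lists and 1 in both skin lists. Of the 29, 19 lay in introns (7 of Smyd1, 5 of Runx1, 4 of Clic4, 2 of Clic6 and 1 of Rmnd5a), 10 between genes, and 0 in an exon or UTR. The nearest to any member's start site was 16.8 kb away, at Runx1. At 6 of the 6 genes no list had a urea summit within 10 kb of the start, which was so for 58.9% of all genes. At 6 of the 6 genes both standard lists had a summit there, which was so for 49.6% of all genes. Of the 114 standard sites, 16 lay within 10 kb and 5 within 1 kb of a member's start, 62 were in both lists, and 17 lay in an exon or UTR. The shares in introns, exons and UTRs over the whole lists were not computed, so these counts have no frame.

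Every one of the 29 urea sites was seen in at least 1 brain list. The 17 sites with a peak in either thymocyte list were therefore a part of the brain sites, and the 14 and 11 thymocyte peaks all overlapped a brain peak, as did 95.5% and 94.9% of the whole thymocyte lists. In the other direction, 15 of 24 (62.5%) and 13 of 23 (56.5%) brain peaks at the loci overlapped a thymocyte peak, against 38.7% and 41.2% of the whole brain lists. The brain lists were the longest, and the part of list length in this overlap was not tested. Replicates shared 8 of 14 and 8 of 11 peaks in thymocytes and 18 of 24 and 18 of 23 in brain.

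**Figure D3:**
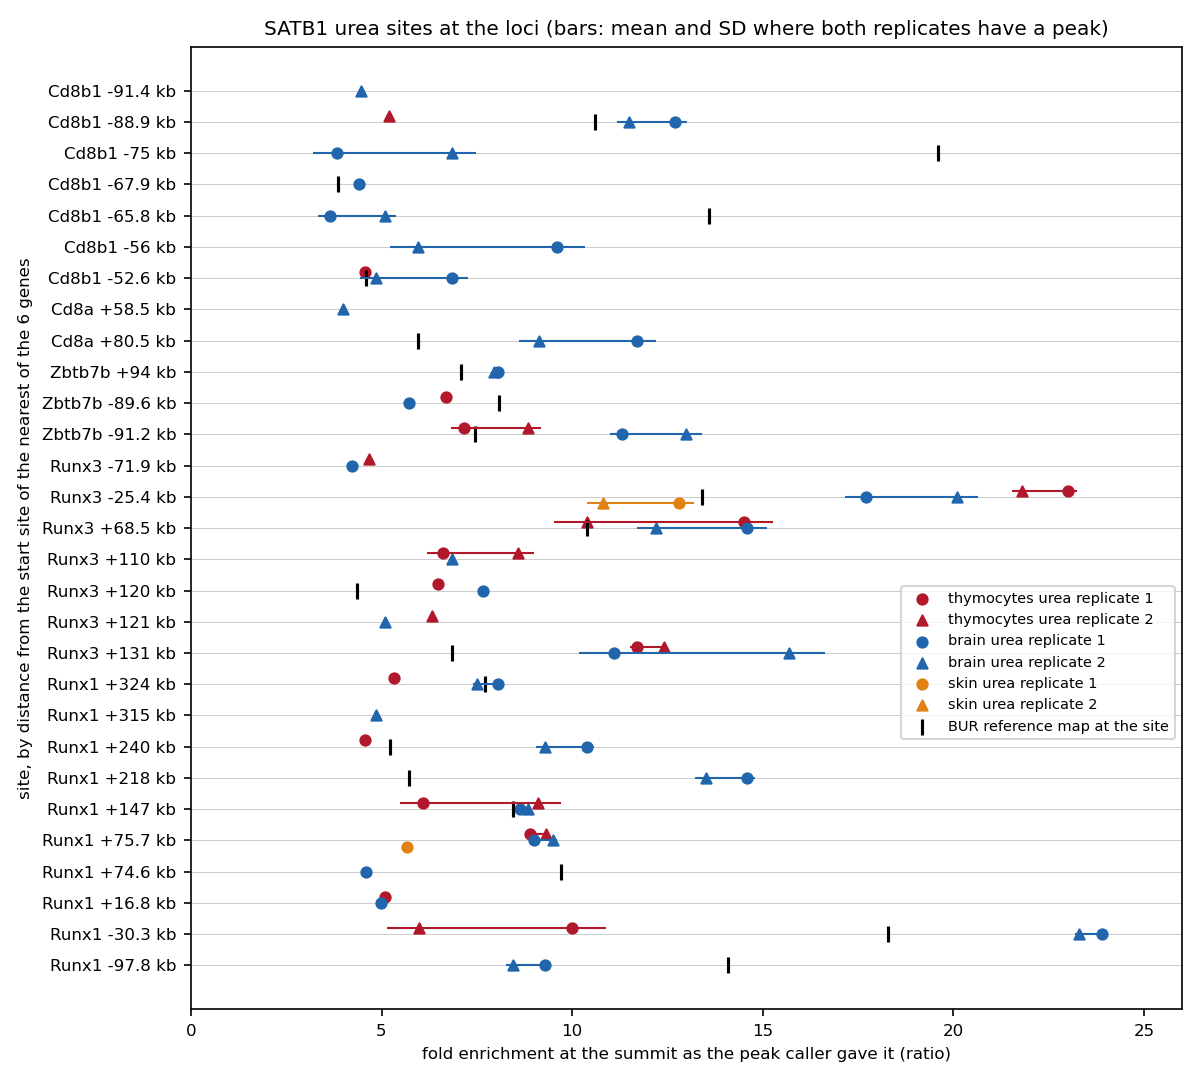
Fold enrichment (ratio, horizontal axis) of each of the 29 SATB1 urea sites, named by the nearest member and the distance from its start, with a point per list that had a peak, a bar for mean and SD where both replicates of a tissue had a peak, and a black tick for the BUR at the site. The Runx3 site 25.4 kb upstream has 6 points (thymocytes 23.0 and 21.8, brain 17.7 and 20.1, skin 12.8 and 10.8), and 7 of the 9 Cd8a and Cd8b1 sites have brain points alone.

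Whether the number of urea peaks rose from skin over thymocytes to brain was tested gene by gene by the Jonckheere-Terpstra statistic, with a one-sided p from the exact permutation of the 6 lists (90 arrangements, smallest p 0.0111) and Benjamini-Hochberg adjustment over all 22367 genes. Cd8b1, Zbtb7b and Runx1 passed at 0.05, 3 of the 6 genes, while 51.2% of all genes did. The adjusted p from this exact test was 0.0235 for Cd8b1 and Runx1, 0.0434 for Zbtb7b, 0.0875 for Cd8a, 0.242 for Runx3 and 1 for Cd4. The direction is that of the list lengths, and 0 of the 6 genes passed when each list was cut to its 10846 best peaks, where 0% of all genes passed too. With flanks of 50 kb, which leave out most of the sites above, 0 of the 6 genes passed against 31.1% of all genes. The study describes its replicates as cells from different animals, while the labels do not name the animals behind each list. In the titles, both urea lists of a tissue carry the same sample code, with different end letters in thymocytes and skin. The standard lists carry different codes. What the code stands for is not given, so whether the spread between lists is one between animals could not be checked.

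Counted list against list, both brain lists exceeded both thymocyte lists at Cd8a, Cd8b1 and Runx1, as at 67.9% of all genes. Both thymocyte lists exceeded both skin lists at Cd8b1, Zbtb7b, Runx3 and Runx1, as at 59.9%. Counts per 10000 peaks of the list are scaled to the list length, which need not remove its effect. On this scale both brain lists were higher at Cd8a and Cd8b1, as at 21.5% of all genes. Both thymocyte lists were higher at Zbtb7b, Runx3 and Runx1, as at 37.3%. For Runx3 the value was 1.33 ± 0.306 in thymocytes and 0.441 ± 0.0242 in brain (SD, n = 2), and for Runx1 1.05 ± 0.396 and 0.748 ± 0.0212. For Cd8b1 it was 0.240 ± 0.0249 in thymocytes and 0.575 ± 0.0938 in brain, and for Cd8a 0 and 0.134 ± 0.0696. For Zbtb7b it was 0.351 ± 0.132 in thymocytes and 0.219 ± 0.0503 in brain. The nearest lists of the tissues were close at Zbtb7b (0.257 in thymocytes and 0.254 in brain) and at Runx1 (0.772 and 0.763). No test was made between the groups of genes, and with 2 lists a tissue no exact two-sided permutation p below 0.333 was possible. In the equal lists of 10846 peaks, Runx3 kept 2 and 2 peaks in thymocytes, 0 and 1 in brain and 1 and 1 in skin, Runx1 kept 0 and 0 in thymocytes, 1 and 1 in brain and 1 and 0 in skin, and the other 4 genes kept 0. In these lists brain was higher at Runx1, the reverse of its order per 10000 peaks, and neither Cd8a nor Cd8b1 had a difference.

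Between the methods, both standard lists held more peaks than both urea lists of thymocytes at 6 of 6 genes, as at 56.7% of all genes. The reverse held at 0 of 6 and at 19.6% of all genes. Taken over the 2 lists, the mean was 20.5 standard against 0 urea peaks at Cd4, 18.5 against 0 at Cd8a, 18.5 against 1 at Cd8b1, 17 against 1.5 at Zbtb7b, 16 against 5.5 at Runx3 and 18.5 against 4.5 at Runx1. The lowest standard count, 10 in replicate 2 at Runx3, was above the highest urea count, 6 in replicate 2 there. The standard lists differed from each other in antibody, and the part of this in the difference between methods was not tested. Replicate 1 shared 63 of 108 and replicate 2 69 of 76 standard peaks at the loci.

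Urea and standard peaks also differed in what they overlapped, with an overlap of at least 1 bp. Of the urea peaks at the 5 loci, 78.6% and 63.6% met a BUR in thymocytes (71.1 ± 10.6%, SD, n = 2) and 83.3% and 69.6% in brain, against 75.8% and 77.6% of the whole thymocyte lists and 73.0% and 72.8% of the whole brain lists. In skin 1 of 2 peaks and 1 of 1 did. Of the standard peaks, 0.926% and 2.63% met a BUR, against 3.78% and 5.20% of the whole lists. With CTCF of thymocytes the order was reversed: 23.1% and 17.1% of the standard peaks met a CTCF peak (whole lists 22.2% and 18.0%), and 0 of the 14 and 11 urea peaks did (0.653% and 0.728% of the whole lists). Against their own whole lists, the values at the loci differed by less than the spread between replicates for the BUR share of thymocyte urea peaks and the CTCF share of standard peaks.

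Read from the side of the BURs, 20 of the 55 BURs at the 5 loci met a urea peak of any tissue (36.4%), against 39.6% of all BURs. The share was 0 of 14 at Cd4, 6 of 15 at Cd8a and Cd8b1, 3 of 3 at Zbtb7b, 4 of 8 at Runx3 and 7 of 15 at Runx1. In thymocytes 20.0% and 12.7% of the 55 BURs met a peak, against 14.3% and 12.6% of all BURs. At the 5 loci the median in vitro enrichment was 7.90 in BURs with a urea peak and 7.65 in those without, while over the whole map the medians were 6.82 and 5.34.

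Sequence separated the peaks of the methods at these loci as it did over the whole lists. In the 300 bases around the summit, thymocyte urea peaks had a median AT content of 61.5% and 59.0% and standard peaks of 44.8% and 45.0%. Over the whole lists these were 69.0% and 68.7% against 48.3% in both, so each class was less rich in A and T here. The longest run without C or without G had a median of 40 and 38 bases in thymocyte urea peaks and 21 and 20 in standard peaks (whole lists 34 and 34 against 21 and 22). A run of at least 25 bases was present in 13 of 14 and 11 of 11 thymocyte urea peaks and in 41 of 108 and 28 of 76 standard peaks.

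The letters TGTGGT, searched on both strands, were in 25.9% and 25.0% of the standard peaks of the 5 loci (whole lists 28.0% and 26.3%), and in 0 of 14 and 1 of 11 urea peaks of thymocytes (whole lists 14.0% and 14.2%). Of the BURs, 0 of the 20 with a urea peak and 8 of the 35 without (22.9%) held them, while over the whole map the shares were 12.3% and 14.4%. A match is a description of the letters and does not show that a RUNX protein binds.

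**Figure D4:**
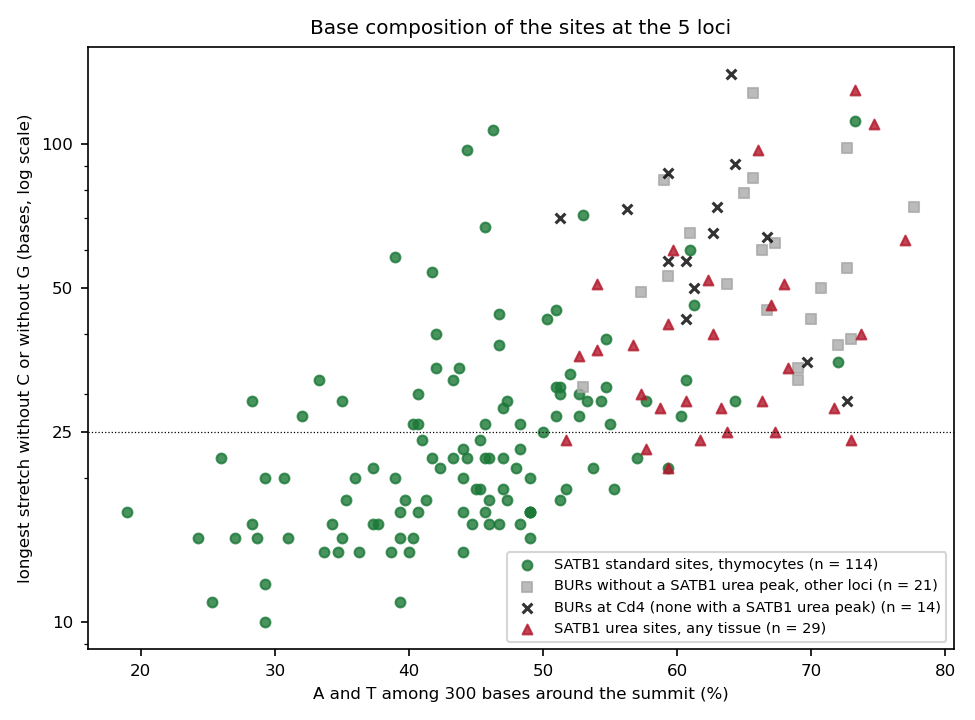
AT content in 300 bases around the summit (percent, horizontal axis) against the longest run without C or without G (bases, log scale) for the 114 standard sites, the 29 urea sites, the 14 BURs at Cd4 and the 21 BURs without a urea peak at the other loci, with a dotted line at 25 bases. The 14 BURs at Cd4 lie between 51.3% and 72.7% A and T, all above the line. Their median longest run was 64.5 bases, against 40 and 38 bases in the thymocyte urea peaks of the 5 loci. Most standard sites lie lower and farther left.

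Another 15 genes of T cell development gave a frame for the 6 genes: the transcription factors Gata3, Tox, Myb, Tcf7, Lef1, Bcl11b, Patz1, Ikzf1 and Ets1, the RUNX partner Cbfb, the cytokine signal genes Il7r and Socs1, the remodeler Chd4, the kinase Lck and Satb1 itself. Their median density in thymocytes was 0.682 and 0.637 urea peaks and 7.68 and 5.21 standard peaks per 100 kb. Both standard lists exceeded both urea lists at 13 of the 15, all but Tox and Il7r, and at 56.7% of all genes. None of the 15 was without a urea peak in all 6 lists as Cd4 was, against 5.46% of all genes. Tcf7, Cbfb, Chd4 and Lck had none in either thymocyte list, as had 15.9% of all genes. The order from skin to brain passed the test at 8 of the 15 (Gata3, Tox, Myb, Bcl11b, Patz1, Il7r, Ikzf1 and Ets1). That is near the 51.2% of all genes that passed.

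Within this list, Lck, the kinase that both coreceptors bring to the T cell receptor, had counts near those of Cd4, with a mean of 0 urea and 18 standard peaks in thymocytes. Satb1 stood at the other end, with a mean of 8.5 urea peaks in thymocytes, 12 in brain and 10.5 in skin, beside 14 standard peaks. Tox, a factor needed for the CD4 lineage, had 11 urea peaks in thymocytes, 35.5 in brain and 3.5 in skin beside 13 standard peaks. Per 10000 peaks of the list, both brain lists were above both thymocyte lists at Tcf7, Cbfb and Chd4, and at 21.5% of all genes. Both thymocyte lists were above both brain lists at Lef1, Bcl11b, Patz1, Il7r, Ikzf1 and Satb1, and at 37.3% of all genes. No urea summit lay within 10 kb of the start at 11 of the 15, and at 58.9% of all genes. Both standard lists had a summit there at 14, all but Ets1, and at 49.6% of all genes.

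The genes on other chromosomes whose 11 peak densities were most like those of a member were found by the Euclidean distance of log2(peaks per 100 kb + 0.5) over the 11 lists. Nearest to Cd4 were Hdac1 (0.623) and Kri1 (0.783), against a median distance of 5.37 over all genes. They were Zfp957 (0.684) and Ubl7 (0.874) for Cd8a, Gtf3c6 (1.09) and Fam69a (1.14) for Cd8b1, and Cldn9 (0.660) and Cldn6 (0.679) for Zbtb7b. For Runx3 they were Gm16066 (0.637) and Lrrc8e (0.649), and for Runx1 Lrrc28 (0.791) and Cnot1 (0.828). Of the 57 regions that had a peak in all 11 lists, 0 lay in the windows of the 6 genes.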

How the data were processed

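SATB1 and CTCF ChIP-seq and the in vitro BUR map were measured in 11 of the 38 samples of the series. The authors checked reads with FastQC, mapped them with Bowtie2 2.3.1 to mm9 and called peaks in each list at a q threshold of 0.01 by MACS2 2.2.7. The control used by the caller is not given in the sources used here. The deposited fold enrichment (a ratio) at each summit, its −log10 p-value and −log10 q-value were computed by the authors' peak caller within each list. The display score that the authors' caller derived from the q-value was not used. The lists give no counts, so the depth of each could not be checked here.

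Groups and replicate numbers followed the sample labels. For thymocyte urea, the numbering in the study's own tables is the opposite, and its methods give other ages for some samples than the labels do. Peaks were counted in gene bodies of GENCODE vM1 with flanks of 100 kb, at an overlap of at least 1 bp, and joined into sites by class. Peak order over tissues was tested by an exact one-sided Jonckheere-Terpstra permutation over 90 arrangements, with Benjamini-Hochberg adjustment over 22367 genes, after being tested on simulated data. Shares and method counts have no test, since an exact two-sided permutation of 2 lists against 2 cannot go below p = 0.333. The peaks named were those in both thymocyte urea lists (at most 5 a window), the 3 strongest standard peaks in both lists in or within 10 kb of the gene, urea peaks in both lists of all 3 tissues, the CTCF peak and BUR nearest each start, and the strongest BUR in each body. Any other peak in the text was chosen after its values were seen. The genes, lists and tests were chosen with earlier results of these data known. Alternatives were other flanks, windows around start sites, stricter thresholds, equal list sizes, a stricter overlap, a replicate block and leaving out each list. Python 3.11.15, numpy 2.4.6, pandas 2.3.3, pysam 0.24.0 and matplotlib 3.10.9 were used, and sequence came from NCBIM37. The sequence of the urea peak at 1 locus is not reported here. Peaks on unplaced chromosomes were left out of the whole-list sequence values.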

Additional observations from a re-analysis of the deposited data

How the results depend on the processing

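The 3 genes that passed the test of order from skin to brain depended on the window and on list length. With flanks of 50 kb 0 genes passed (31.1% of all genes, 1 of the 6 at an unadjusted p under 0.05), and with equal lists of 10846 peaks 0 passed (0% of all genes, none of the 6 and 1.94% of genes at an unadjusted p under 0.05). With the replicate block 0 passed, although 3 of the 6 had an unadjusted p under 0.05: with a smallest exact permutation p of 0.0278, the lowest adjusted p over all genes was 0.0562. Leaving out a list gave 0 genes, whichever it was, with a smallest exact permutation p of 0.0333, 2 to 3 of the 6 genes at an unadjusted p under 0.05 and a lowest adjusted p between 0.0619 and 0.0683, so no gene in the genome passed in these settings. Flanks of 200 kb gave 4. Same-numbered lists did not deviate together across genes (correlations of the replicate differences from -0.03 to 0.01). Whether same-numbered lists share a batch cannot be told from this. The number of genes with more urea peaks in brain per 10000, 2 of 6, was 0 with flanks of 50 kb and 1 with equal lists (Runx1, which was not among the 2). It stayed at 2 with the replicate block, which could not lower it. The share of thymocyte urea peaks on a BUR, 71.1%, became 100% in equal lists, which hold few peaks here, and lay between 63.6% and 78.6% without either list. More standard than urea peaks were counted at 6 of 6 genes under every alternative applied to this count. Leaving out a list or using the replicate block could not lower it, since both standard lists already exceeded both urea lists. Other flanks, windows around start sites, a stricter threshold and equal list sizes could have changed it. Over all results, 54 of 66 alternative values were counts equal or close to the main count, or shares that moved by less than the spread between replicates. Whether a value reversed its direction was not scored. With no depth in the lists and 2 lists a tissue, the lack of a peak and small differences between tissues cannot be resolved.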
